A study of Danio rerio with 15 samples.

Results

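Transcripts of 5 haemoglobin genes (hbba1, hbba2, hbaa1, hbaa2 and hbae5) and of alas2, the red cell enzyme that starts heme synthesis, were followed in zebrafish brain. They were taken by gene symbol from both deposited gene count tables, and all 6 were found among 14971 genes. Dibromoacetonitrile (DBAN), a by-product of water disinfection, was given to adult fish through the water over 56 days, controls received none, and poly(A) RNA of brain tissue was sequenced. The 15 libraries are 3 each of control females (0 µg/L), females at 40 µg/L, females at 200 µg/L, males at 40 µg/L and control males (0 µg/L). The labels name no strain, and do not say whether a library holds 1 brain or several or whether replicates came from separate tanks, and p-values here cover the variation among these libraries alone, which may be technical.

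Haemoglobin carries oxygen in red blood cells and is built of alpha-type and beta-type globin chains, each holding a heme group. Fish red cells keep their nucleus and hold RNA, so red cells left in the vessels of a dissected brain add their transcripts to a brain library. Heme is made in a chain of enzyme steps that begins with 5-aminolevulinate synthase, for which vertebrates have a ubiquitous gene (alas1) and an erythroid gene (alas2). Loss of alas2 causes anaemia in zebrafish.

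The globin genes lie close together. By the authors' coordinates, for which no source used here names a build, chromosome 3 carries hbba2 (55091228 to 55092065), hbaa2 (55093448 to 55094399), hbaa1 (55100112 to 55100936) and hbba1 (55103441 to 55104355). Between hbaa2 and hbaa1 stands ba1l (55098457 to 55099272), a further beta globin gene, 839 bases from hbaa1. The larval globin genes hbbe1.1 to hbae3 follow on the far side of hbba1, the nearest 9741 bases away. Between hbba1 and hbbe1.1 stands si:ch211-5k11.8 (55105066 to 55105966), whose levels were not followed here. hbae5, an alpha-type globin gene, is on chromosome 12 (20352417 to 20353544). alas2 is on chromosome 8 (21353940 to 21369028) and is also placed on an alternative contig of that chromosome. The adult globin genes are near copies of each other, so the way reads were assigned could move counts between hbba1, hbba2 and ba1l or between hbaa1 and hbaa2.

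Libraries held 10488947 to 49388334 counts, and values are given as CPM (counts per 1000000) on library sizes scaled by edgeR's trimmed mean of M-values. Multiples of 4 made up 44.5% of the counts between 1 and 40, against 25% by chance. A sequenced fragment was therefore taken as about 4 counts, an approximation, since most small counts were not multiples of 4. Totals divided by 4 give a depth of 2622237 to 12347084 fragments. A count of 0 therefore allows up to 12 counts (3 fragments), and intervals and floors cover counting error only. For genes detected in a library but missing from 10 or more of its 14 companions (rare genes), the median count was 28 and 35 in 2 of the 3 libraries of 40 µg/L females (replicates 1 and 3) and 39, 40.5 and 132 in the males at 40 µg/L. That median lay between 8 and 17 in the other 10 libraries, the control and 200 µg/L libraries among them. In males this property cannot be told apart from exposure. Summed levels of 6 neuronal markers, among them snap25a and elavl4, lay between 4886 and 8195 CPM in every library, and no marker of that list was at 0. Replicate 1 of the 200 µg/L females stood apart: its summed skeletal muscle markers reached 188.1 CPM and its meninges and skin markers 479.4 CPM, against at most 86.6 and 159.2 CPM in any other library. Replicate 2 of the same group stood apart in pineal and eye markers, which summed to 941 CPM, against at most 180.4 CPM elsewhere.

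hbba1, the beta globin with the highest counts, was found at 630.4 to 1421 CPM in control females and reached several times that in single libraries of every other group. In control females it stood at 1421, 630.4 and 854.3 CPM. In females at 40 µg/L it stood at 8885, 1379.8 and 3602 CPM, and in females at 200 µg/L at 7097, 620.2 and 1309.98 CPM. In males at 40 µg/L it stood at 3066, 8319 and 3645 CPM, against 4707, 3580.3 and 863.6 CPM in control males. All 3 control females were low, together with replicate 2 at 40 µg/L, replicates 2 and 3 at 200 µg/L and replicate 3 of the control males. No exposed group was clear of its control group. In order of their means the groups were males at 40 µg/L (5010.2 ± 2880.4 CPM), females at 40 µg/L (4622 ± 3855 CPM), control males (3050.3 ± 1976 CPM), females at 200 µg/L (3009 ± 3557 CPM) and control females (968.4 ± 407.3 CPM; SD, n = 3 each). Every pair of neighbours in that order had overlapping ranges. In bulk tissue, fewer red cells and less globin RNA per red cell cannot be told apart.

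hbba2, the beta globin at the end of the adult cluster, was much lower per length than hbba1. Per kilobase of annotated gene span, introns included, it averaged 111.3 CPM over the 15 libraries, against 3642 CPM for hbba1. Control females had 33.8, 9.28 and 0 CPM, the last of which allows up to 0.489 CPM. Females at 40 µg/L had 168.0, 14.99 and 50.2 CPM, and females at 200 µg/L had 307.2, 23.6 and 17.8 CPM. Males at 40 µg/L had 150.0, 222.0 and 132.6 CPM, against 47.2, 212.5 and 9.58 CPM in control males. The exposed males were all high and close to each other, while the control males spanned 22.2 times between their lowest and highest library and overlapped them.

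**Figure D1:**
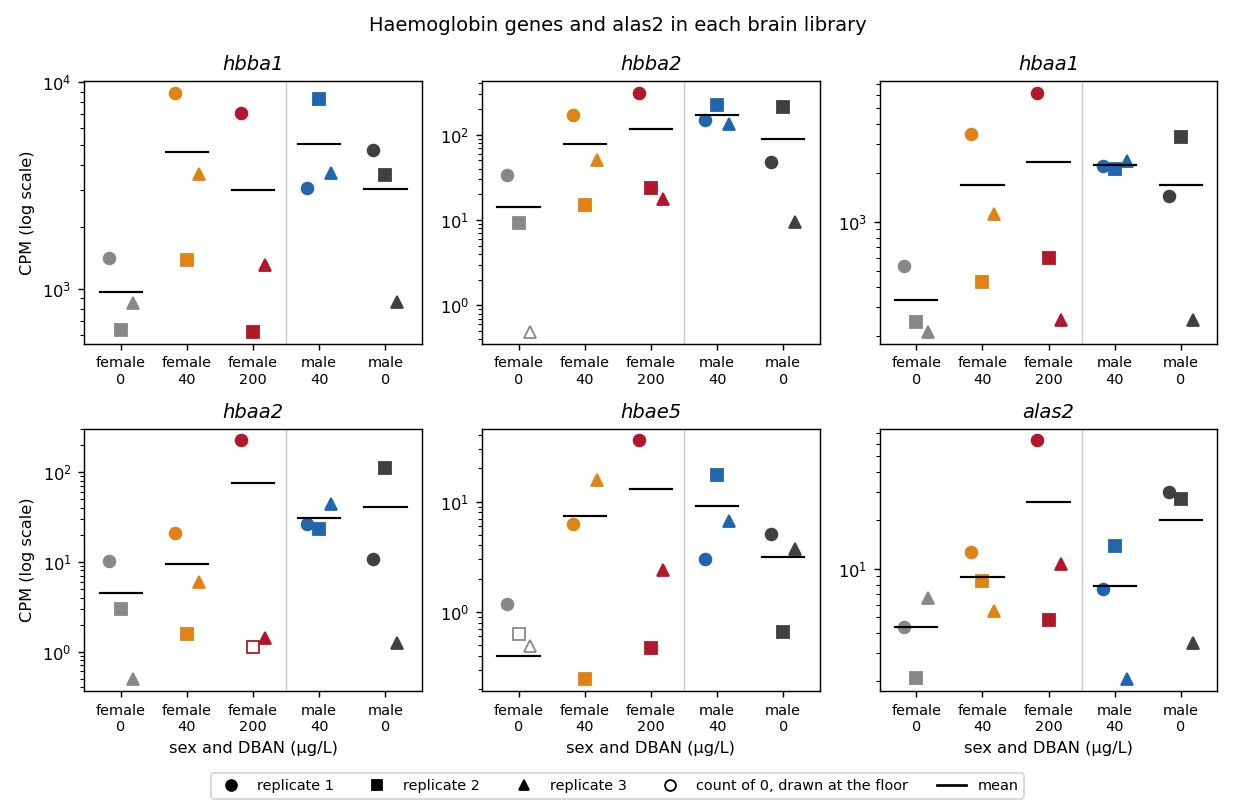
CPM (log scale) of the 5 haemoglobin genes and alas2 in each of the 15 brain libraries, by sex and DBAN concentration, with replicates as symbols and the group mean as a line. Open symbols mark counts of 0, drawn at the floor of 12 counts. For hbba1 the 3 control female libraries lie at 630.4 to 1421 CPM, below the highest library of every other group.

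hbaa1, the leading alpha globin, followed the same libraries. Control females had 534.5, 240.8 and 210.7 CPM. Females at 40 µg/L had 3471, 427.2 and 1122 CPM, and females at 200 µg/L had 6187, 598.7 and 248.1 CPM. Males at 40 µg/L had 2198, 2122 and 2377 CPM, against 1438, 3334 and 249.8 CPM in control males. The 3 exposed male libraries lay within 1.12 times of each other, the narrowest spread of any group, and inside the range of the control males. Group means ran from females at 200 µg/L (2345 ± 3332 CPM) through males at 40 µg/L (2232 ± 130.8 CPM), control males (1674 ± 1556 CPM) and females at 40 µg/L (1673 ± 1595 CPM) to control females (328.7 ± 178.9 CPM; SD, n = 3 each), again with overlap between all neighbours.

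hbaa2, the second alpha globin of the cluster, was low outside a few libraries. Control females had 10.1, 2.95 and 0.489 CPM, females at 40 µg/L had 21.1, 1.59 and 5.89 CPM, and females at 200 µg/L had 224.4, 0 (floor 1.13) and 1.41 CPM. Males at 40 µg/L had 26.0, 23.0 and 43.7 CPM, against 10.8, 109.97 and 1.24 CPM in control males. Replicate 1 of the 200 µg/L females and replicate 2 of the control males were the high libraries, and no pair of groups compared here was free of overlap.

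hbae5, named as an embryonic-type alpha globin, ranged from 0 to 35.7 CPM and was near the limit of detection in several libraries, control females among them. It was at 1.18 CPM in 1 control female and at 0 in the other two, which allows up to 0.633 and 0.489 CPM. Females at 40 µg/L had 6.26, 0.244 and 15.7 CPM, and females at 200 µg/L had 35.7, 0.469 and 2.41 CPM. Males at 40 µg/L had 3.00, 17.4 and 6.63 CPM, against 5.13, 0.658 and 3.70 CPM in control males. With 2 control female libraries at 0, its fitted fold changes against that group rest on the 1 control female at 1.18 CPM. When single libraries were left out, they ran from 3.04 to 10.5 at 40 µg/L and from 1.85 to 11.3 at 200 µg/L on the log2 scale.

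alas2 sat at a few CPM in most libraries. Control females had 4.37, 2.11 and 6.605 CPM. Females at 40 µg/L had 12.7, 8.37 and 5.52 CPM, and females at 200 µg/L had 62.7, 4.78 and 10.8 CPM. Males at 40 µg/L had 7.47, 13.9 and 2.06 CPM, against 29.9, 27.2 and 3.47 CPM in control males. The libraries above the rest were 3: replicate 1 at 200 µg/L and replicates 1 and 2 of the control males. Replicate 2 of the control females, at 2.11 CPM, rests on about 10 fragments, with an exact Poisson interval (95%) of 1.01 to 3.88 CPM. alas2, like hbaa2 and unlike the other members, averaged lower in males at 40 µg/L (7.82 ± 5.94 CPM) than in control males (20.2 ± 14.5 CPM; SD, n = 3 each), although the ranges overlapped.

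None of the 6 genes passed an adjusted p of 0.05 in any of the 6 comparisons by edgeR's quasi-likelihood test with Benjamini-Hochberg adjustment over all genes tested. The question in the first comparison was whether 40 µg/L DBAN moved these transcripts in females. There 0 of the 6 genes were called, against 0.238% of all 12601 genes tested, and 0 had an unadjusted p under 0.05. DESeq2 also called 0. All 6 fold changes were positive, with a median log2 value of 2.30, while the median of all genes was -0.03 and 48.1% of all genes were positive. These 6 signs are not independent, since the other genes followed hbba1 across the libraries (Pearson r 0.63 to 0.89). hbba1 had a log2 fold change of 2.26 ± 1.03 (SE; edgeR adjusted p = 0.363) and alas2 of 1.02 ± 0.82 (edgeR adjusted p = 0.656). 0 of 6 genes had groups that did not overlap, against 11.3% of all genes with all exposed libraries above all controls. Taking 40 µg/L females by replicate 2 alone, the library without the raised median of rare genes, a choice made after seeing the data, hbba1 was at 0.49 and hbaa1 at 0.36 on the log2 scale, and hbaa2 and hbae5 turned to -1.52 and -0.70.

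At 200 µg/L the same control females served, so the comparisons are not independent. Again 0 of 6 genes were called, against 0.0556% of all genes, and 0 were free of overlap, against 7.48% of all genes in the higher and 10.4% in the lower direction. The log2 fold changes were 1.64 ± 1.01 for hbba1, 3.03 ± 1.93 for hbba2, 2.84 ± 1.34 for hbaa1, 4.06 ± 2.45 for hbaa2 and 5.01 ± 2.25 for hbae5 (SE), none of which passed in edgeR (adjusted p between 0.471 and 0.661). alas2 had the only unadjusted p under 0.05 among the 6, with a log2 fold change of 2.58 ± 0.86 (SE; edgeR adjusted p = 0.312), and DESeq2 called it at 2.62 (adjusted p = 0.0386). These values depended on replicate 1. Without that library the log2 fold changes were -0.003 for hbba1, 0.53 for hbba2, 0.37 for hbaa1, -2.65 for hbaa2, 1.85 for hbae5 and 0.84 for alas2 (edgeR adjusted p = 0.652 for alas2). Between females at 200 and at 40 µg/L, 0 of 6 were called, against 3.93% of all genes, by edgeR and by DESeq2 alike, and 0 had an unadjusted p under 0.05. Their log2 fold changes ran from -0.62 ± 0.99 for hbba1 to 2.98 for hbaa2.

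In males at 40 µg/L against control males 0 of 6 genes were called by edgeR or DESeq2 and 0 had an unadjusted p under 0.05, although 15.6% of all 12454 genes tested were called. Of the fold changes 4 were positive and 2 negative. hbba1 was at 0.71 ± 0.65 and hbaa1 at 0.41 ± 0.75 on the log2 scale (SE; edgeR adjusted p = 0.537 and 0.781), while hbaa2 was at -0.39 ± 1.27 and alas2 at -1.38 ± 0.94 (edgeR adjusted p = 0.888 and 0.394). 0 of 6 were free of overlap, against 17% of all genes in the higher and 27.7% in the lower direction. Whether the 40 µg/L effect differed between the sexes was tested directly. The female effect exceeded the male effect in all 6 genes, by 1.53 ± 1.04 for hbba1, 1.93 ± 1.24 for hbaa1 and 2.39 ± 1.14 for alas2 on the log2 scale (SE), but none was called (edgeR adjusted p = 0.539, 0.510 and 0.356). Here too the 6 genes are not independent, and the same control females entered. The background was 0% of 13149 genes by edgeR, with 1909 genes at an unadjusted p under 0.05 and 503 called by DESeq2. With 40 µg/L females by replicate 2 alone, that difference was below 0 for all 5 haemoglobin genes, at -0.21 for hbba1.

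Control females were lower than control males in the fitted values of all 6 genes, with a median log2 value of -2.49 against 0.03 for all genes. The same control females served in the comparisons above, and the 6 genes are not independent of each other. 0 of 6 genes were called by edgeR, against 4.4% of all genes, and 0 were free of overlap, against 21% of all genes in the lower direction. hbaa1 was at -2.34 ± 0.91 (SE; edgeR adjusted p = 0.177) and alas2 at -2.21 ± 0.83 (SE; edgeR adjusted p = 0.146), and these were the 2 genes with an unadjusted p under 0.05. DESeq2 called both, at -2.36 (adjusted p = 0.0327) and -2.23 (adjusted p = 0.0343). hbba1 was at -1.65 ± 0.75 (SE; edgeR adjusted p = 0.254). The control male of replicate 3 lay among the females: at 863.6 CPM its hbba1 was between the control female values of 854.3 and 1421 CPM.

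**Figure D2:**
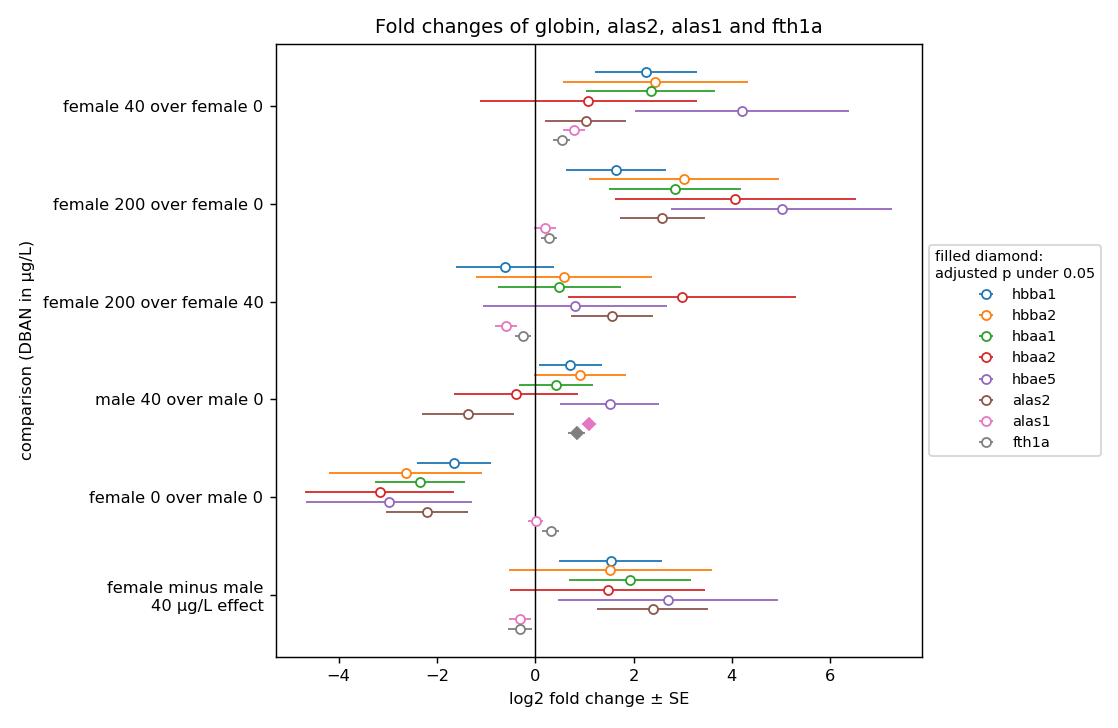
Log2 fold change with its SE (edgeR) of the 5 haemoglobin genes, alas2, alas1 and fth1a in 5 pairwise comparisons and in the difference of the female and male 40 µg/L effects. Filled diamonds mark an adjusted p under 0.05, and only alas1 (1.09) and fth1a (0.84) in males at 40 µg/L carry them. The haemoglobin genes have wide error bars in each comparison.

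The 5 haemoglobin genes together took 0.214%, 0.0912% and 0.115% of all counts in control females. They took 1.08%, 0.180% and 0.421% in females at 40 µg/L, and 1.43%, 0.126% and 0.162% in females at 200 µg/L. In males at 40 µg/L they took 0.443%, 0.990% and 0.557%, against 0.744%, 0.835% and 0.125% in control males. The exposed males were the 1 group with no low library: each of the other 4 groups held at least 1 library under 0.22%. The beta globin gene ba1l is not counted in these shares. With it they ran from 0.129% in replicate 2 of the control females to 1.81% in replicate 1 at 200 µg/L.

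The balance between alpha and beta transcripts was not the same in all libraries. Per hbba1 count there were 0.376, 0.382 and 0.247 hbaa1 counts in control females, 0.391, 0.310 and 0.312 at 40 µg/L and 0.872, 0.965 and 0.189 at 200 µg/L. In males at 40 µg/L the ratio was 0.717, 0.255 and 0.652, against 0.306, 0.931 and 0.289 in control males. The ratio fell in a low range of 0.189 to 0.391 in 10 libraries and in a high range of 0.652 to 0.965 in 5, with none between. The 5 high libraries were replicates 1 and 2 at 200 µg/L, replicates 1 and 3 of the exposed males and replicate 2 of the control males, so both exposed and control libraries held them. Per count of hbba1 and ba1l together, the same 5 libraries lay at 0.443 to 0.645 and the other 10 at 0.133 to 0.242. All these ranges were read from the values and were not tested.

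Those 5 libraries also had the most hbba2 per hbba1 count. Both ratios are taken over hbba1, so a library with relatively few hbba1 counts is raised in both by construction. Per 1000 hbba1 counts the 5 libraries held 43.3 and 38.1 hbba2 counts at 200 µg/L, 48.9 and 36.4 in exposed males and 59.4 in the control male. The other 10 held 0 (floor 0.573) to 26.7. hbaa2 per 1000 hbaa1 counts was likewise 36.3 in replicate 1 at 200 µg/L and 33.0 in replicate 2 of the control males, but it was 0 (floor 1.88) in replicate 2 at 200 µg/L, which has a high hbaa1 ratio. The other libraries held 2.32 to 18.9. High hbaa1 ratios were found at low and at high totals. Replicate 2 at 200 µg/L had the highest ratio, 0.965, at a haemoglobin share of 0.126% of counts. The other libraries with a high ratio had shares of 0.443% to 1.43%, and the 10 with a low ratio had 0.0912% to 1.08%. Whether ratio and total go together was not tested.

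**Figure D3:**
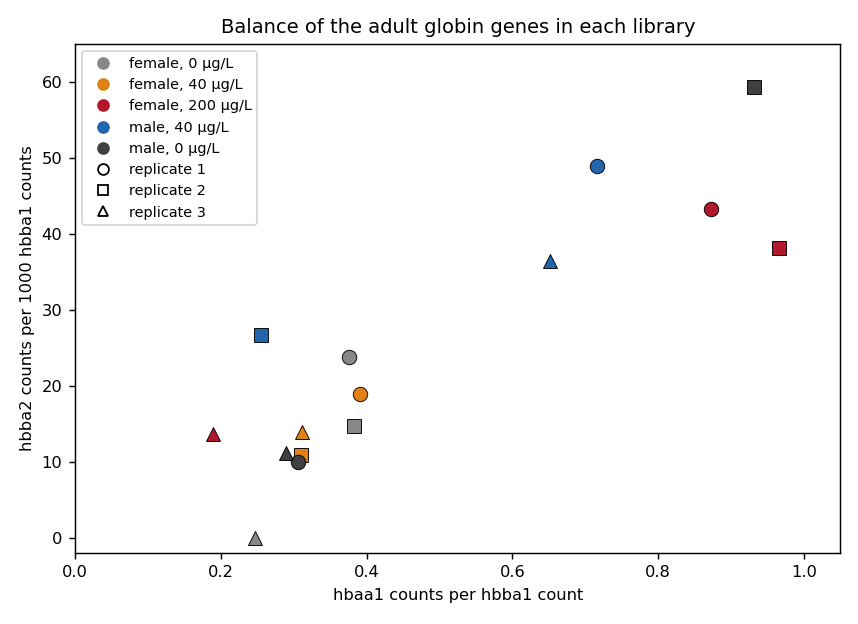
hbaa1 counts per hbba1 count (x axis) against hbba2 counts per 1000 hbba1 counts (y axis) in each library, coloured by group with replicates as symbols. At the upper right stand 5 libraries from 3 groups, with hbaa1 ratios of 0.652 to 0.965, and the other 10 lie at 0.189 to 0.391. Both axes share hbba1 as their denominator.

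alas2 relative to the 5 haemoglobin genes, ba1l left out, separated the exposed males from the control males, whereas alas2 itself did not. Per 1000 haemoglobin counts there were 1.37, 1.301 and 0.332 alas2 counts in males at 40 µg/L, against 4.82, 3.76 and 3.08 in control males. The groups did not overlap. The value of 0.332 rests on 68 alas2 counts, in a library whose rare genes had a median of 132 counts. With 3 libraries a group, a two-sided exact permutation test cannot give less than 0.1, so none is given. In females the values were 2.19, 2.39 and 6.199 in controls, 1.02, 4.59 and 1.15 at 40 µg/L and 4.52, 3.85 and 6.83 at 200 µg/L. The 5 lowest ratios of all, 0.332 to 1.37, belonged to the 5 libraries whose rare genes had a median count of 28 or more, and the next lowest was 2.19. In the 40 µg/L female whose rare-gene median was 8, the ratio was 4.59, inside the range of the controls. The part of that library property in the low ratios was not tested.

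**Figure D4:**
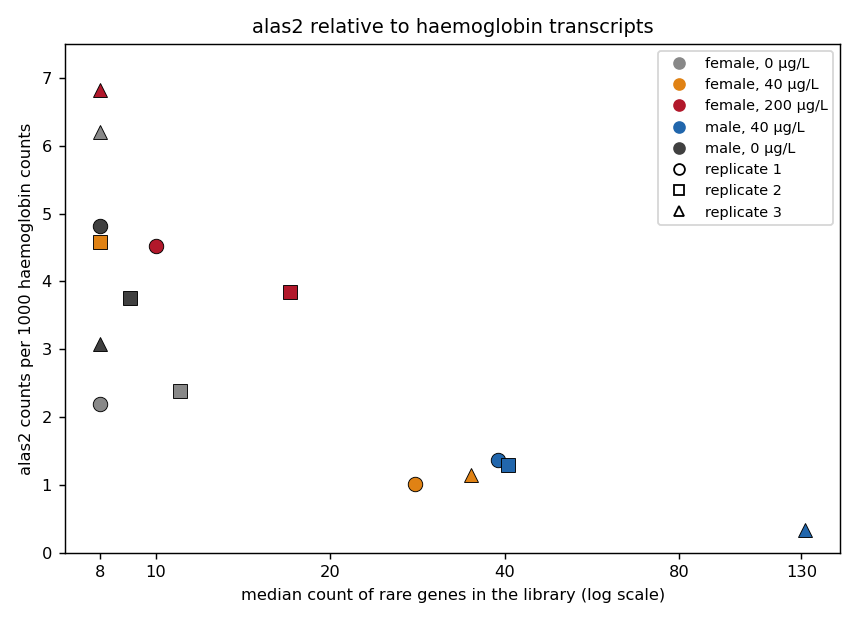
alas2 counts per 1000 haemoglobin counts in each library (y axis) against the median count of rare genes in that library (x axis, log scale), coloured by group with replicates as symbols. The 5 libraries with a rare-gene median of 28 or more, all exposed to 40 µg/L, have ratios of 0.332 to 1.37, below the other 10.

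Among the 9 genes of heme synthesis listed beside alas2, edgeR called only alas1, in males at 40 µg/L, where 15.6% of all genes were called. alas1, the ubiquitous first enzyme of the pathway and rate-limiting outside red cells, stood at 657.0, 542.8 and 564.7 CPM in males at 40 µg/L, against 280.7, 259.6 and 286.6 CPM in control males. Every exposed male was above every control, which held for 17% of all genes. It rose in males at 40 µg/L by 1.09 ± 0.13 on the log2 scale (SE; edgeR adjusted p = 0.00858), and it kept an adjusted p of at most 0.0486 in all 13 alternative settings, the lowest log2 value being 0.70 with plain library totals. In females alas1 stood at 264.4, 309.0 and 255.6 CPM in controls, at 531.6, 387.9 and 514.0 CPM at 40 µg/L and at 274.2, 420.0 and 254.7 CPM at 200 µg/L. At 40 µg/L all 3 females were above all 3 controls, which held for 11.3% of all genes. The log2 fold change of 0.79 ± 0.22 (SE) did not pass (edgeR adjusted p = 0.127), while DESeq2 called it at 0.80 (adjusted p = 0.0229). At 200 µg/L the log2 fold change was 0.20 (edgeR adjusted p = 0.835). The difference between the female and male 40 µg/L effects, -0.31 ± 0.22 on the log2 scale (SE), was not called (edgeR adjusted p = 0.562). Over the alternatives the alas1 log2 fold change in females at 40 µg/L went down to 0.47. The libraries with a rare-gene median of 28 or more held the highest alas1 levels, 514.0 CPM and above. No other library was above 420.0 CPM. All 3 exposed males share that property, so no setting separates it from exposure in males, and its part was not tested.

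The other 8 genes of the pathway did not pass in any comparison. In males at 40 µg/L all 8 had negative log2 fold changes under the scaling used here, among them uros, uroporphyrinogen III synthase, at -0.17 ± 0.25 and cpox, coproporphyrinogen oxidase, at -0.09 ± 0.27 (SE; edgeR adjusted p = 0.721 and 0.876). The median of the 9 genes was -0.34, against -0.16 for all genes. fech, the ferrochelatase that puts iron into the ring, was found at 6.62, 1.49 and 5.69 CPM in exposed males, against 5.09, 7.38 and 6.87 CPM in control males. In the female comparisons at 40 and at 200 µg/L, 4 and 7 of the 9 genes were positive, with medians of -0.09 and 0.23 and 0 called.

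Of the 7 tested genes of iron storage and plasma carriage, 3 rose in males at 40 µg/L and 0 fell, where 15.6% of all genes were called. fth1a, a ferritin heavy chain that stores iron, stood at 2672, 1865 and 2448 CPM in exposed males, against 1175, 1392 and 1331 CPM in control males. All exposed males were above all controls, as for 17% of all genes. The log2 fold change of fth1a was 0.84 ± 0.17 (SE; edgeR adjusted p = 0.0221). The ferritin-like genes fthl28 (1.70; edgeR adjusted p = 0.0240) and fthl31 (3.42 ± 0.79; edgeR adjusted p = 0.0332) rose with it, and fthl31 was at 107.4, 73.1 and 51.6 CPM in exposed males, against 2.27, 15.9 and 3.47 CPM in control males. These calls are less firm than that of alas1. With plain library totals fth1a was at 0.44 on the log2 scale and not called (edgeR adjusted p = 0.0667). It also lost its call without any 1 control male or without exposed male 1 or 3 (edgeR adjusted p 0.0562 to 0.0928). fthl31 lost it without control male 1 or 3 or any exposed male (0.0510 to 0.101), and fthl28 without any control male or exposed male 1 (0.0501 to 0.0814). In females none of the 8 tested genes was called at either concentration.

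Of 15 tested genes of heme and iron transport, 1 was called in females at 200 against 40 µg/L (3.93% of all genes) and 0 in each of the other comparisons. It was slc40a1, ferroportin, the exporter of iron from cells, at 52.5, 59.3 and 55.8 CPM at 200 µg/L, against 20.7, 29.2 and 28.8 CPM at 40 µg/L (log2 fold change 1.09 ± 0.25, SE; edgeR adjusted p = 0.0402). Control females had 65.9, 43.6 and 43.5 CPM, so the 40 µg/L libraries were the low ones. That call was lost in 8 of 14 alternatives, each of the 6 that left out a library among them (largest adjusted p over the alternatives 0.523). In males at 40 µg/L slc40a1 was at 28.1, 35.0 and 11.7 CPM, against 65.1, 67.6 and 47.2 CPM in control males. It did not pass (log2 fold change -1.27, edgeR adjusted p = 0.0807). Every exposed male was below every control, which held for 27.7% of all genes. Of the 4 tested genes of heme breakdown none was called in any comparison.

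Genes of the red cell membrane and red cell enzymes were read in each library beside globin. In replicate 1 at 200 µg/L slc4a1a, the anion exchanger of the red cell membrane, reached 90.1 CPM, against 2.75 to 36.6 CPM in the other 14 libraries. In the same library sptb, red cell beta spectrin, stood at 222.2 CPM, nt5c2l1, a nucleotidase, at 1297 CPM, and epb41b, protein 4.1, at 645.9 CPM. gata1a, the erythroid transcription factor, was at 11.7 CPM there, but also reached 11.4 CPM in an exposed male. Not every gene of the red cell list peaked in that library. ank1a, bpgm and prdx2 had their highest library in another group, at 473.3, 79.7 and 274.5 CPM. The 11 measured genes of that list summed to 3989.5 CPM there. They summed to 799 to 932 CPM in control females, 915 to 1390.1 CPM in females at 40 µg/L, 926 and 1327 CPM in the other two females at 200 µg/L, 1494 to 1794 CPM in males at 40 µg/L and 882 to 1695 CPM in control males. At 200 µg/L against control females all 11 were positive under the scaling used here, with a median log2 value of 1.52, against 0.00 for all genes, 6 had an unadjusted edgeR p under 0.05, and 0 were called.

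In males at 40 µg/L, where 15.6% of all genes tested were called, 2 of the 11 red cell genes rose and 0 fell. Their median log2 value was -0.04. The 2 called were ank1a, an ankyrin of the red cell membrane skeleton that neurons also express, at 0.92 (edgeR adjusted p = 0.0168), and aqp1a.1, a water channel of red cells and vessels, at 1.06 (edgeR adjusted p = 0.0409). With plain library totals 0 of the 11 rose: ank1a was at 0.53 and aqp1a.1 at 0.68 on the log2 scale (edgeR adjusted p = 0.0566 and 0.159). ank1a was also lost without any 1 control male (edgeR adjusted p 0.0583 to 0.0796), and aqp1a.1 without any control male or exposed male 2 or 3 (0.0683 to 0.130). Between control females and control males 1 of the 11 was called, against 4.4% of all genes. This gene was nt5c2l1, at 45.3, 26.0 and 50.2 CPM in control females, against 395.4, 268.5 and 74.2 CPM in control males. It was lower in control females by a log2 value of -2.60 ± 0.58 (SE; edgeR adjusted p = 0.0330), and lost without any 1 control female or control male 1 or 2 (largest adjusted p 0.159). Of the 15 genes for erythroid transcription factors and receptors, jak2a, a kinase of erythropoietin and other cytokine receptors, rose in males at 40 µg/L (1.32; edgeR adjusted p = 0.0242, 0.0503 with plain library totals, and 0.0580 to 0.0945 without control male 2 or 3 or exposed male 1). lmo2, a factor of blood and vessel formation, was the 1 gene of that list called between females at 200 and 40 µg/L, against 3.93% of all genes. Its log2 fold change was 1.29 (edgeR adjusted p = 0.0231, and 0.0510 to 0.0950 without replicate 1 or 3 of either group). It averaged 134.0 CPM at 200 µg/L, 54.8 CPM at 40 µg/L and 123.7 CPM in control females, so the 40 µg/L libraries were the low ones. Against control females neither concentration passed (edgeR adjusted p = 0.0518 at 40 µg/L and 0.920 at 200 µg/L). Between control females and control males lmo2 was higher (1.16; edgeR adjusted p = 0.0171) and cited2, a coactivator, lower (-1.04; edgeR adjusted p = 0.0301), and each was lost when single libraries were left out (largest adjusted p 0.0824 and 0.119).

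**Figure D5:**
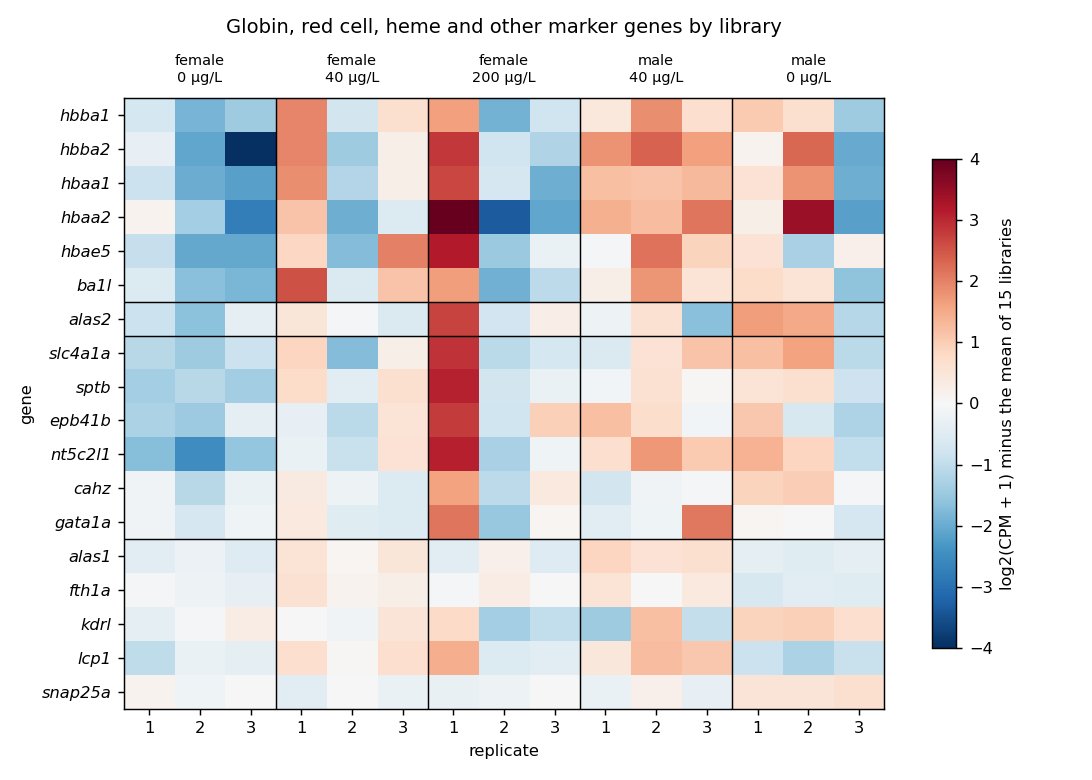
log2(CPM + 1) of each gene (rows) minus its mean over the 15 libraries (columns, by group and replicate), with the colour scale cut at -4 and 4. Replicate 1 of the 200 µg/L females is red in the haemoglobin and red cell genes (slc4a1a at 90.1 CPM), the 3 control females are blue in most of them, and alas1 is above its mean in the 3 males and 3 females at 40 µg/L and in replicate 2 at 200 µg/L (420.0 CPM), though barely so in replicate 2 of the 40 µg/L females (387.9 CPM).

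Markers of other blood and vessel cells were set beside these values. White cell markers (8 of 9 in the tables, of which 1 to 4 were at 0 in all libraries but replicate 1 of the control males, lyz in 11 of the 15) summed to 62.4 to 97.8 CPM in control females, 121 to 139 CPM at 40 µg/L and 65.2 to 261 CPM at 200 µg/L. They summed to 128 to 190 CPM in males at 40 µg/L, against 43.0 to 62.0 CPM in control males. Of these markers lcp1, the white cell plastin, had the highest mean in every group, 97.7 CPM in females at 40 µg/L against 48.1 CPM in control females. In that comparison 2 of the 6 tested white cell genes were positive and 4 negative, with a median log2 value of -0.62. lcp1 rose in males at 40 µg/L by 1.99 on the log2 scale (edgeR adjusted p = 0.00960) and kept its call in all 13 alternatives. Endothelial markers (10 of 11 in the tables) summed to 173 to 249 CPM in control females, 367 to 564 CPM at 40 µg/L and 401 to 536 CPM at 200 µg/L, and to 319 to 705 CPM in males at 40 µg/L, against 171 to 250 CPM in control males. Most of that sum was tek, and 0 of the 10 were called in any comparison, cdh5, the vascular cadherin, being at 0 in 4 exposed libraries. The part of blood content or of vessels in the globin values was not tested. Of the brain markers, 3 of 6 neuronal genes (elavl3 at -1.10, snap25a at -0.68 and syt1a at -1.04 on the log2 scale) and 1 of 4 radial glial genes (slc1a2b at -0.83) fell in males at 40 µg/L (edgeR adjusted p 0.0130 to 0.0469), and 0 of 3 oligodendrocyte genes were called in any comparison. Over all genes 15.6% were called in males at 40 µg/L. In the same males actc1b, a muscle actin, rose by 2.68 on the log2 scale (edgeR adjusted p = 0.0413). The cone photoreceptor gene gnat2 had counts of 0 in all 3 exposed males, against 1.84, 1.81 and 1.22 CPM in control males (edgeR adjusted p = 0.0453), and no fold is given for it. Over all genes, 3900, 3123 and 5172 were at 0 in the exposed males, against 1435, 1637 and 1831 in control males. At so low a level these zeros do not show a loss of gnat2. Markers of thrombocytes and of meninges and skin had 0 calls. In females at 200 against 40 µg/L, where 3.93% of all genes were called, mpx, of neutrophils, was lower (-2.92) and fabp7a, of radial glia, higher (1.06). mpx averaged 2.59 CPM at 200 µg/L, 20.1 CPM at 40 µg/L and 18.1 CPM in control females. fabp7a averaged 994.5, 479.1 and 751.2 CPM in that order, with control females between both groups. In control females against control males, where 4.4% of all genes were called, elavl4 was higher (0.68) and sypa (-1.93) and slc1a2b (-0.61) lower. Of these calls of other cell types, lcp1 was the only one kept in every alternative setting.

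Likeness to hbba1 was ranked among 10726 genes with a mean of at least 1 CPM. The members, and symbols with a colon or starting with LOC or zgc, were left out of that ranking. ba1l, the beta globin between hbaa2 and hbaa1, came first in it (Pearson r = 0.98 on log2(CPM + 1) over 15 libraries). It stood at 789.1, 366.0 and 326.2 CPM in control females, 6746, 778.6 and 2538 CPM at 40 µg/L and 3689.8, 307.6 and 558.4 CPM at 200 µg/L. Males at 40 µg/L had 1379.7, 3991 and 1714 CPM, against 1949, 1695 and 377.3 CPM in control males. ba1l held 382 to 759 counts per 1000 hbba1 counts, and it was called in none of the 6 comparisons, its log2 fold change being 2.77 ± 1.16 in females at 40 µg/L (SE; edgeR adjusted p = 0.318). The next in order of likeness were myl9a (0.84), nt5c2l1 (0.83), fam53b (0.83), slc4a1a (0.82), gfap (0.81), stk10 (0.81), slc9a1b (0.80), sptb (0.80) and pou5f3 (0.79). Of these 10, 5 to 10 remained when a library was left out, with 5 remaining without replicate 2 of the 40 µg/L females or replicate 1 of the control males, and 6 without replicate 3 of the control males.

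Across the 15 libraries each of the other 5 genes followed hbba1, alas2 least closely. With hbba1, on log2(CPM + 1), hbaa1 had Pearson r = 0.89 and Spearman rho = 0.81, hbba2 had 0.82 and 0.84, hbaa2 had 0.80 and 0.78, and hbae5 had 0.78 and 0.82 (permutation p at most 0.00086, Benjamini-Hochberg adjusted p at most 0.00107 over the 5 relations). alas2 had r = 0.63 and rho = 0.58 (permutation p = 0.0124 and 0.0263, the same after adjustment). Without the 2 libraries farthest from the median of hbba1, r was 0.91 for hbaa1, 0.85 for hbba2, 0.77 for hbaa2, 0.72 for hbae5 and 0.54 for alas2. Within the 9 female libraries r was 0.90 for hbaa1, 0.79 for hbba2, 0.82 for hbaa2, 0.87 for hbae5 and 0.72 for alas2. Within the 6 male libraries it was 0.80, 0.81, 0.63, 0.45 and 0.51 in that order, so hbae5 and not alas2 was lowest there. All points share the library's scaling, and libraries of 5 groups are pooled.

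The larval globins were nearly silent. Of the 9 larval alpha and beta globin genes in the tables, 8 were at 0 in 10 or more of the 15 libraries, hbae1.1 in 14 of them. hbbe2 reached 13.8 CPM in replicate 2 of the males at 40 µg/L and was at 0 in 7 libraries. Of the globins that are not of red cells, cygb1, a cytoglobin, stood at 71.1, 61.5 and 86.2 CPM in females at 200 µg/L, against 22.0, 22.9 and 11.9 CPM at 40 µg/L. It was higher at 200 than at 40 µg/L by 1.95 ± 0.30 on the log2 scale (SE; edgeR adjusted p = 0.0140), the 1 call among the 6 tested genes of that list, against 3.93% of all genes. The call was lost without replicate 1 at 40 µg/L or replicate 3 at 200 µg/L and with 40 µg/L females by replicate 2 alone (largest adjusted p 0.246). Control females had 44.7, 37.0 and 31.6 CPM, between both groups.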

How the data were processed

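Poly(A) RNA of 15 zebrafish brain libraries was sequenced, 3 in each of 5 groups. The authors deposited 2 tables of read counts with the same 14971 genes, 1 with the control and 40 µg/L libraries of both sexes and 1 with the control and 200 µg/L females. The 3 control female columns, present in both, are identical and were used once, and the tables were joined by gene symbol. The submitters' processing notes name FastQC, STAR, Picard, StringTie and DESeq2, with no version or role. The genome build, the counting tool and the use of strand are not given in the sources used here. The counts were used as deposited.

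The members and gene lists were chosen with earlier results of these data known. Groups came from sex and DBAN concentration in the labels. Counts were scaled by the trimmed mean of M-values and tested with edgeR 4.0.16 (R 4.3.3, limma 3.58.1; glmQLFit and glmQLFTest, genes kept by filterByExpr, Benjamini-Hochberg adjustment over all genes tested, threshold 0.05). Female comparisons were fitted on 9 libraries from both tables, the male comparison on 6, and control females against control males and the difference between the sexes at 40 µg/L on the 12 libraries of the first table. CPM used the same scaling. The tests were checked on simulated data with 200 changed genes at a dispersion of 0.05. The common dispersion fitted to these data was far higher, its square root being 0.65 to 0.77. That check therefore does not give the power for genes as variable as these. The alternatives were DESeq2 1.42.0, median-of-ratios scaling, plain totals, no filter, a replicate block, counts divided by 4, library sizes without globin genes, and each library left out.

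Named genes were drawn mainly from all members, the list genes called in any comparison or among the 3 highest of their list, and the 10 ranked genes whose log2(CPM + 1) correlated best with hbba1 (members, and symbols with a colon or starting with LOC or zgc, left out). Some genes of that rule, such as creg1, are not named. Others were named outside it, among them epb41b, gata1a, fech, cdh5, bpgm and prdx2. Of 142 list symbols, 122 are in the tables. Levels between genes were compared per kilobase of annotated gene span. Libraries held 10488947 to 49388334 counts. Sequences of these genes are not shown, since none was used here.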

Additional observations from a re-analysis of the deposited data

How the results depend on the processing

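Of the fold changes of the 6 genes under all alternatives, 494 kept their direction and side of the threshold, 3 passed it with DESeq2 and 25 reversed; no scaling alternative reversed one. DESeq2 called 1 of the 6 genes at 200 µg/L against control females and 2 between control females and control males, and no other alternative called any. Leaving out 1 library, log2 fold changes ran, in females at 40 µg/L, from -0.26 to 2.49 for hbaa2; at 200 µg/L, from -0.0032 to 2.12 for hbba1, -2.65 to 5.47 for hbaa2, -0.19 to 2.14 for ba1l and -0.061 to 0.33 for alas1. Between 200 and 40 µg/L they ran from -2.26 to 0.27 (hbba1), -1.91 to 1.84 (hbba2), -1.98 to 1.60 (hbaa1), -3.73 to 4.33 (hbaa2), -2.35 to 1.98 (hbae5) and -0.19 to 2.05 (alas2). In males they ran from -0.11 to 1.38 for hbaa1 and -0.97 to 2.34 for hbaa2, in the sex difference from -0.13 to 3.18 for hbba2 and -1.28 to 2.88 for hbaa2, and between the controls from -0.082 to 0.059 for alas1. With 40 µg/L females by replicate 2 alone, chosen after seeing the data, hbaa2 (-1.52) and hbae5 (-0.70) reversed at 40 µg/L, hbba1 (1.14) and ba1l (0.98) at 200 against 40 µg/L, and hbba1 (-0.21), hbba2 (-0.84), hbaa1 (-0.038), hbaa2 (-1.11), hbae5 (-2.20) and ba1l (-0.16) in the sex difference. alas1 between the controls was -0.0037 with median-of-ratios scaling, -0.0038 with DESeq2 and -0.12 with plain totals. The cause was not tested.

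Same-numbered libraries did not pair: over 30 pairs their deviations correlated between -0.13 and 0.13, 1 of them above 0.1. The replicate block gave, at 200 against 40 µg/L, -0.30 for hbba2, -0.13 for hbaa1 and -0.36 for hbae5, and 1.28 for hbaa2 in males. With the block, the genes called numbered 0 (30 without) in females at 40 µg/L, 2 (7) at 200 µg/L, 76 (495) at 200 against 40 µg/L, 973 (1947) in males and 283 (579) between the controls. Of the blood, iron and red cell genes called without it, the block lost fth1a (adjusted p = 0.0714), fthl28 (0.0651) and aqp1a.1 (0.0880) in males, slc40a1 (0.0939), lmo2 (0.0614) and mpx (0.114) at 200 against 40 µg/L, and nt5c2l1 (0.0763) between the controls.

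Over all genes, DESeq2 called 796 in females at 40 µg/L, 333 at 200 µg/L, 1428 at 200 against 40 µg/L, 3270 in males, 1742 between the controls and 503 in the sex difference. In females at 40 µg/L plain totals gave 58, no filter 98, counts divided by 4 gave 114, globin genes left out 73 and replicate 2 alone 0; the last gave 6 at 200 against 40 µg/L. Leaving out a library gave, in the same order of comparisons, 0 to 289, 1 to 10, 1 to 596, 286 to 3144, 0 to 286 and 0 to 369. The mean hbba1 level ran from 742 to 1137 CPM in control females, 2491 to 6243 at 40 µg/L, 965 to 4203 at 200 µg/L, 3356 to 5982 in males at 40 µg/L and 2222 to 4144 in control males. Plain totals shifted the median log2 change of all genes by -0.23 in females at 40 µg/L, -0.39 in males and 0.17 at 200 against 40 µg/L, and moved the share of calls that were higher in males to 22.7%, against 53.6%. Counting error was small for hbba1 and hbaa1 beside the spread between libraries; hbae5, hbaa2 and alas2 rest on few fragments in several libraries.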
